A study of Mus musculus with 6106 samples.

Results

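The Nr4a and Egr genes encode 2 small families of early transcription factors, and 6 of them were followed here in splenic regulatory T cells: Nr4a1, Nr4a2, Nr4a3, Egr1, Egr2 and Egr3. They were picked by name from the 23725 genes of the count table. Of the 6, 4 had a transcript in the cells used, and Nr4a3 and Egr3 were listed at 0 in every cell. Spleens were taken at an age of 10 months from male B6 mice that carried both Nr4a1-Gfp and Foxp3-Ires-Thy1.1, so that GFP reports Nr4a1 and Thy1.1 reports Foxp3. Live T cell receptor-positive CD4+ cells carrying the Foxp3 reporter were sorted by GFP into the dimmest (0 to 20%, GFPlow), middle (40 to 60%, GFPmed) and brightest (80 to 100%, GFPhigh) parts, and each was made into 1 inDrops droplet library. All 3 groups thus share the genotype, the tissue, the sex and the age, and they differ by reporter brightness alone, as far as the labels say. How many mice went into a library, and whether RNA of the reporter itself was counted as Nr4a1, is not given in the labels.

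Nr4a1 (also called Nur77), Nr4a2 and Nr4a3 are orphan nuclear receptors, and Egr1, Egr2 and Egr3 are zinc finger factors. Both families are switched on within minutes to hours of T cell receptor engagement, the Egr genes largely through the MAP kinase route to serum response factor and its partners, and Nr4a1 also through calcium, calcineurin and MEF2 factors. In T cells the Egr factors act with the corepressors Nab1 and Nab2, and Egr2 and Egr3 are known for restraining activation. The Nr4a receptors are known for roles in the formation and stability of regulatory T cells.

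Cells with at least 500 unique molecular identifiers (UMIs, which count captured RNA molecules) were used, 5435 of 6106. There were 1537 in GFPmed and 1775 in GFPhigh, with the rest in GFPlow, and the bins had 2435870 (GFPlow), 2512277 (GFPmed) and 2270376 (GFPhigh) UMIs, a mean of 1147.4, 1634.5 and 1279.1 per cell. Foxp3, the factor that defines regulatory T cells, was detected in 30.29%, 32.99% and 30.48% of cells in that order. The T cell receptor subunit Cd3e was detected in 21.997%, 26.94% and 25.86%. Detection of both in every bin is what the label of the sort calls for. These shares do not allow for the deeper GFPmed cells. With each cell thinned at random to 500 UMIs, Foxp3 was found in 16.91%, 12.88% and 15.89%, lowest in GFPmed. Thinned shares were 10.46%, 9.69% and 12.17% for Cd3e and 21.81%, 16.98% and 17.92% for Cd4, also lowest in GFPmed. At least 3 markers of another cell type were held by 25, 36 and 24 cells. Of the 6010 barcodes 95 occurred in more than 1 library. With 1 library and 0 replicates per bin there is no test between bins, and bin and library cannot be told apart. Values are given with 95% intervals that cover counting error only, and a gene is called higher or lower at 2-fold.

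The sequence just before an annotated transcript start is printed for the 3 genes whose start windows were at hand and whose transcripts were detected, to show which motifs of the routes named above it holds. The windows are the 250 bases before a RefSeq transcript start in GRCm38.p6, 5′ to 3′ on the gene's strand, and none of their bases lies in an annotated UTR. Nr4a1 is shown for chr15:101266596-101266845 (+ strand), Nr4a2 for chr2:57124004-57124253 (- strand) and Egr2 for chr10:67537619-67537868 (+ strand), which is 1 of its 5 windows. Capitals mark 4 kinds of match on either strand: the CArG box of serum response factor, the MEF2 box, the short cyclic AMP response element CGTCA, and the EGR site GCGNGGGCG.
Nr4a1: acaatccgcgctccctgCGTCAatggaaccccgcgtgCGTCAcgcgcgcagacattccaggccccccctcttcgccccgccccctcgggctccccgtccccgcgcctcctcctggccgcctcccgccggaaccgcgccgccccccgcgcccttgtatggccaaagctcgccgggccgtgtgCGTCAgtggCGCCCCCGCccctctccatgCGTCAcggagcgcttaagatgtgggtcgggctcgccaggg
Nr4a2: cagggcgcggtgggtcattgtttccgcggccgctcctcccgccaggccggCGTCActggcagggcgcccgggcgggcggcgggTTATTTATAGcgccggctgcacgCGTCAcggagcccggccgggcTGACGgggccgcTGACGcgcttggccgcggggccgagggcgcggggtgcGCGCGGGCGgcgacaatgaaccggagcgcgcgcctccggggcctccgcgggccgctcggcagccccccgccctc
Egr2: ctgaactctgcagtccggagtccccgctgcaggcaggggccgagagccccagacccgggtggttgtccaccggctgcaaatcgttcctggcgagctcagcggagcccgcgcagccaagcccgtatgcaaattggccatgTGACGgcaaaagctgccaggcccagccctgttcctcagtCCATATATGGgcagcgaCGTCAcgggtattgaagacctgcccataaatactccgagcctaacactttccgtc

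The Nr4a1 window holds 4 short cyclic AMP response elements, of which the last begin 69 and 40 bases before the start, with 1 EGR site between them on the opposite strand at 60 bases, and it holds no CArG box and no MEF2 box. The Nr4a2 window also holds 4 of these elements, with a MEF2 box among them and an EGR site at 74 bases. The Egr2 window holds a CArG box at 72 bases, with 1 of 2 short cyclic AMP response elements before it and the other after it at 55 bases. Across 32841 start windows of the same length, 17.8% held CGTCA at least once and 0.137% held it 4 times or more. An EGR site was in 4.70% of these windows, a MEF2 box in 2.92% and a CArG box in 1.47%. The full element TGACGTCA (1.55% of windows) and the monomer site of the NR4A receptors, AAAGGTCA (1.34%), did not occur in the 3 windows. The NFAT core GGAAA, not marked, was in 55.6% of all windows. It occurred 1 time each in the printed Nr4a2 and Egr2 windows and not in that of Nr4a1. The window of Nr4a3, a gene at 0 in every cell, is not printed and also holds 4 short cyclic AMP response elements. TGACGTCA contains CGTCA, and otherwise the matches in the printed windows did not overlap. A match is a run of letters, not a site shown to be bound, and a motif not found says only that these letters are not in the window.

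Among the Nr4a receptors, Nr4a1 is the gene behind the sorted reporter, so its difference between bins checks the sort and is no finding. Per 1000000 UMIs of the bin (UPM), its level was 35.7 in GFPlow (interval 28.6 to 44.1, 87 UMIs), 92.7 in GFPmed (81.2 to 105.4) and 340.5 in GFPhigh (316.9 to 365.3, 773 UMIs). The 3 intervals did not overlap, and the order of the transcript was that of the reporter. GFPhigh stood 9.53-fold above GFPlow and 3.67-fold above GFPmed, and GFPmed stood 2.60-fold above GFPlow. The Nr4a1 gene lies at chr15:101254269-101274795, and the printed window lies inside that span, before the start of a shorter transcript.

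Nr4a2, the second receptor (chr2:57106830-57124003), was at the edge of detection. No UMI of it was found in GFPlow, against 9 UMIs in 4 GFPmed cells and 11 UMIs in 8 GFPhigh cells. A count of 0 allows up to 1.23 UPM, taken as 3 counts per library, and the levels of 3.58 and 4.85 UPM were 2.91 times (interval 1.33 to 5.52) and 3.93 times (1.96 to 7.04) that limit. Without the cell with the most Nr4a2 UMIs in each bin the values were 1.62 times (0.525 to 3.77) and 2.86 times (1.24 to 5.64). GFPmed and GFPhigh could not be told apart, with a log2 ratio of 0.42 (interval -0.97 to 1.88). Nr4a3 (chr4:48045153-48086447), the third receptor, was listed at 0 in all 3 bins, as was Egr3 (chr14:70077203-70082614). Where reads of a gene could be counted, a count of 0 allows up to 1.23, 1.19 and 1.32 UPM, and whether that held for these 2 genes is not known from the sources used here. They are among 9118 genes of the table with no UMI in any cell.

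The Egr genes were not used by the sort. The intervals of Egr1 and Egr2 overlapped between GFPlow and GFPmed, unlike those of Nr4a1, and an overlap does not exclude a difference at that step. Egr1 stood at 42.7 UPM in GFPlow (interval 34.9 to 51.7), 46.6 in GFPmed (38.5 to 55.8) and 89.4 in GFPhigh (77.5 to 102.6). GFPlow and GFPmed overlapped, and GFPhigh stood above both. The log2 ratio of GFPmed over GFPlow was 0.12 (-0.27 to 0.52), and that of GFPhigh over GFPmed was 0.94 (0.61 to 1.28). Egr1 was 2.09-fold higher in GFPhigh than in GFPlow, a log2 ratio of 1.06 (0.72 to 1.42) close to the 2-fold line. With equal weight for each cell it was 0.94, under that line.

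Egr2 (chr10:67535475-67542188) showed the same order with a larger difference. It stood at 14.4 UPM in GFPlow (10.01 to 19.98, 35 UMIs), 18.3 in GFPmed (13.4 to 24.4, 46 UMIs) and 56.4 in GFPhigh (47.04 to 67.03). Again GFPlow and GFPmed overlapped and GFPhigh lay apart. The log2 ratio was 0.34 (-0.32 to 1.03) for the first step of the reporter, 1.61 (1.13 to 2.14) for the second, and 1.96 (1.42 to 2.56) from end to end, or 3.92-fold. Egr4, a further family member outside the set, had UMIs in GFPhigh alone, 5 in 3 cells.

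**Figure D1:**
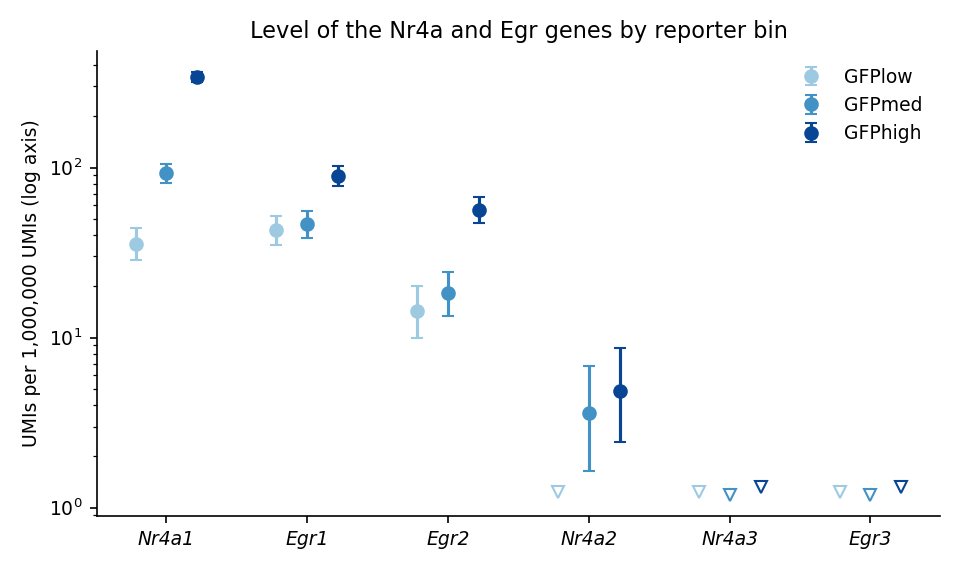
Level of each gene in UMIs per 1000000 UMIs of the bin (log axis). Points are the 3 bins, bars are exact Poisson 95% intervals, and open triangles are the limit of 3 counts where a bin had 0 UMIs, which holds for Nr4a3 and Egr3 only if their reads could be counted. Nr4a1 climbs at both steps from 35.7 to 340.5, while Egr1 and Egr2 have overlapping intervals in GFPlow and GFPmed and lie higher in GFPhigh.

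Set against all 8633 genes with at least 50 UMIs, which Nr4a1, Egr1 and Egr2 reached, 3 of the 6 genes were at least 2-fold higher in GFPhigh than in GFPlow, as were 2.77% of all genes, and none was 2-fold lower, as were 1.74%. With equal weight for each cell 2 of the 6 passed, without Egr1. By size of that ratio Nr4a1 ranked 10 and Egr2 ranked 40 from the top, with Egr1 further down. For GFPhigh over GFPmed 2 of the 6, Nr4a1 and Egr2, passed 2-fold against 1.88% of all genes, and none was 2-fold lower, against 0.985%. For GFPmed over GFPlow Nr4a1 alone passed, against 1.27% of all genes, and again none was 2-fold lower, against 1.26%. There Egr2 and Egr1 ranked 1210 and 2689. Nr4a1, the gene of the sort, is counted in all 3 comparisons, where its passing checks the sort and is no finding. Of the Egr genes, Egr2 and, close to the line, Egr1 passed for GFPhigh over GFPlow. For GFPhigh over GFPmed Egr2 alone passed, and for GFPmed over GFPlow neither did. The median log2 ratio of all genes was 0.04, -0.04 and 0.08 for GFPhigh over GFPlow, GFPmed over GFPlow and GFPhigh over GFPmed, and these comparisons share their bins.

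Detection in single cells followed the levels, and it stayed low throughout. Nr4a1 was detected in 2.26% (1.67 to 2.99) of cells in GFPlow, 7.09% (5.86 to 8.49) in GFPmed and 13.9% (12.3 to 15.6) in GFPhigh. Egr1 was detected in 66, 60 and 94 cells, or 3.11%, 3.90% and 5.30%. Egr2 was detected in 20, 20 and 58 cells, or 0.942%, 1.30% and 3.27%. Most cells of even the brightest bin therefore had no captured transcript of these genes, and at this depth that does not show that a cell lacked them.

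Since GFPmed cells were deeper, each cell was also thinned at random to 500 UMIs. The share of cells with Nr4a1 was then 1.41%, 2.99% and 8.51% in GFPlow, GFPmed and GFPhigh. For Egr1 the thinned shares were 1.46%, 1.496% and 3.15%, and for Egr2 they were 0.612%, 0.455% and 1.80%. At equal depth GFPlow and GFPmed could not be told apart for Egr1 or Egr2 within counting error, and the averages over all possible thinnings were 1.76% in both bins for Egr1 and 0.515% and 0.623% for Egr2. Any of the 6 genes was detected in 2.97% (2.29 to 3.78), 4.36% (3.39 to 5.503) and 10.6% (9.25 to 12.2) of thinned cells, against 5.18%, 10.0% and 16.8% without thinning. Nr4a1, the gene of the sort, is counted in these shares.

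The transcripts were concentrated in few cells. Positive cells of GFPlow, GFPmed and GFPhigh held a mean of 1.81, 2.14 and 3.13 UMIs of Nr4a1, and the highest cell held 7, 29 and 54. In GFPhigh, 38 cells with at least 5 UMIs of Nr4a1 held 57.2% of all its UMIs in that bin. For Egr1 the highest cell held 6, 9 and 11 UMIs, and for Egr2 it held 5, 9 and 12.

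If the UMIs of each gene had fallen on cells in proportion to cell depth, Nr4a1 would have been expected in 84.99 cells of GFPlow, 212.3 of GFPmed and 599.7 of GFPhigh, against 48 cells observed in GFPlow, 109 in GFPmed and 13.9% of the 1775 cells in GFPhigh. Over the 3 bins the observed number was 45.0% of that expectation for Nr4a1, 48.5% for Egr2 and 54.8% for Egr1. The median of the 8633 genes was 88.1%, and Foxp3 stood at 86.03%, Cd3e at 94.1% and the corepressor Nab1 at 88.7%. Among the 8633 genes Nr4a1 ranked 66, Egr2 ranked 72 and Egr1 ranked 94 from the most concentrated.

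**Figure D2:**
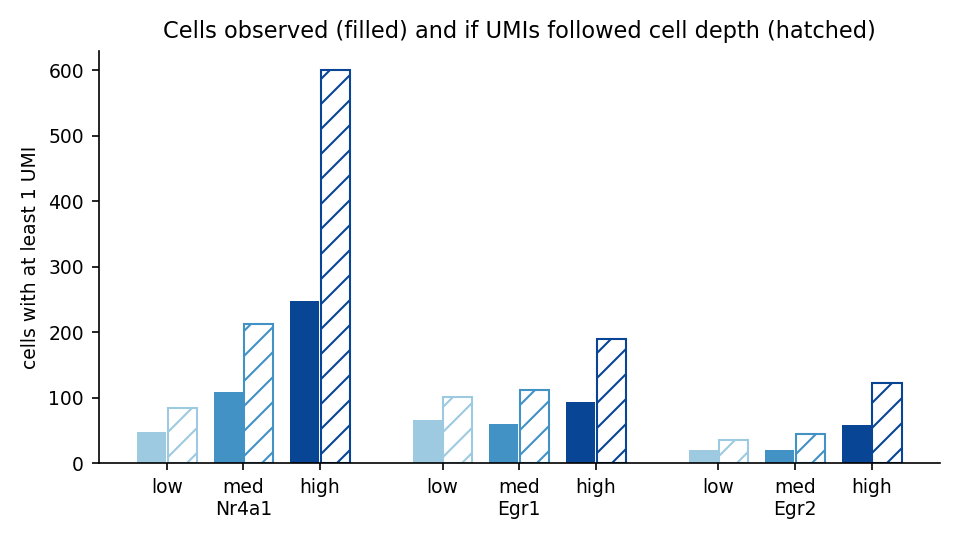
Number of cells with at least 1 UMI of Nr4a1, Egr1 and Egr2 in each bin (filled bars) beside the number expected if the UMIs of the gene followed cell depth (hatched bars). The axis starts at 0. In all 9 pairs the filled bar is lower, with 48 cells for Nr4a1 in GFPlow where 84.99 were expected.

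The genes were detected in the same cells far more often than depth alone would give. Expected numbers of cells with both genes were formed within 5 groups of cell depth in each bin. Egr1 and Egr2 were found together in 58 cells where 5.16 were expected, a ratio of 11.2 (8.53 to 14.5). Nr4a1 and Egr2 were found together in 58 cells against 11.2 expected, a ratio of 5.16 (3.92 to 6.67). Nr4a1 and Egr1 were found together in 80 cells against 20.7, a ratio of 3.87 (3.07 to 4.81).

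Within bins the same pairs lay above 1 in all 3 libraries. For Egr1 with Egr2 the ratio was 14.5, 14.4 and 9.81 in GFPlow, GFPmed and GFPhigh, from 10, 13 and 35 cells. Nr4a1 with Egr2 gave 15.1, 6.80 and 4.29 from 8, 11 and 39 cells, and Nr4a1 with Egr1 gave 6.86, 3.86 and 3.53 from 11, 19 and 50 cells. The ratio was numerically lowest in GFPhigh for each pair, and no difference between bins was tested. The largest ratio possible falls as a gene is detected in more cells, and detection was highest in GFPhigh. The ratios of different bins are therefore not on 1 scale. Nr4a2, found in 12 cells, shared 9 with Nr4a1, 6 with Egr1 and 5 with Egr2.

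As a contrast inside the same cells, Foxp3 was found with Nr4a1, Egr1 and Egr2 at 0.94, 0.90 and 0.96 times the expected number. Foxp3 was detected in far more cells, 30.48% in GFPhigh, so its largest possible ratio is lower than for the pairs. Of the 79 GFPhigh cells with 2 or more of the 6 genes, 2 held a barcode that occurs in another library. None of the cells with 2 or more genes in any bin, 19, 30 and 79 in number, held 3 markers of another cell type.

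**Figure D3:**
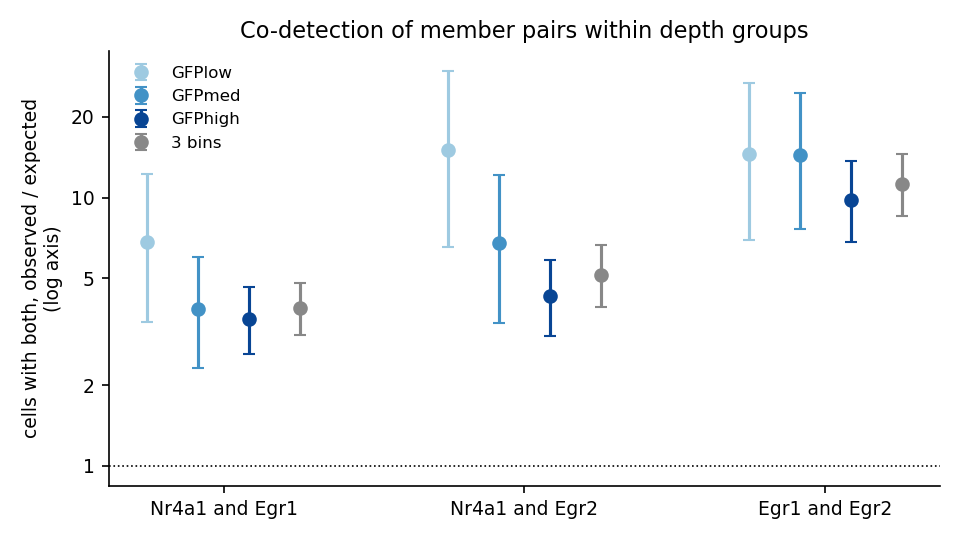
Cells with both genes of a pair, observed over expected within depth groups (log axis), for each bin and over 3 bins, with Poisson 95% intervals of the observed count. The dotted line marks 1. All points lie above it, and over 3 bins the ratio is 11.2 for Egr1 and Egr2, 5.16 for Nr4a1 and Egr2 and 3.87 for Nr4a1 and Egr1.

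Read from the Nr4a1 side, the share of cells with an Egr transcript differed between bins by less than its counting intervals. Of cells with Nr4a1, 22.9% (12.03 to 37.3), 17.4% (10.8 to 25.9) and 20.2% (15.4 to 25.8) also had Egr1 in GFPlow, GFPmed and GFPhigh, and 16.7%, 10.1% and 15.8% had Egr2. Read from the Egr side, the shares stand beside the share of all cells with Nr4a1, which the sort sets at 2.26%, 7.09% and 13.9%. Of cells with Egr1, 16.7% (8.62 to 27.9), 31.7% (20.3 to 44.96) and 53.2% (42.6 to 63.6) also had Nr4a1. Of cells with Egr2, 8 of 20, 11 of 20 and 39 of 58 had Nr4a1. Since the bins were sorted by the Nr4a1 reporter, these shares are a description.

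The cells were also split by Nr4a1, the gene of the sort. In cells without a UMI of Nr4a1, Egr1 stood at 31.2, 30.4 and 41.96 UPM in the 3 bins, a log2 ratio of GFPhigh over GFPlow of 0.43 (-0.04 to 0.90) against 1.06 in all cells. In cells with a UMI of Nr4a1 it was 495.2, 227.99 and 359.04 UPM, and the log2 ratio was -0.48 (-1.05 to 0.16). Both intervals hold 0. A cell counted as without a gene may still have held its RNA. Egr2 had a log2 ratio of 0.90 (0.03 to 1.83) in cells without Nr4a1 and of 0.10 (-0.63 to 1.004) in cells with it. Splits by an Egr gene, which the sort did not use, also changed the ratios. Egr1 had 0.62 (0.20 to 1.06) in cells without Egr2 and -0.03 (-0.66 to 0.69) in cells with it. Egr2 had 1.05 (0.23 to 1.95) in cells without Egr1 and 1.64 (0.91 to 2.55) in cells with it.

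Egr detection climbed with the number of Nr4a1 UMIs in a cell. Over the 3 bins, Egr1 was found in 2.78% of 5031 cells with 0 UMIs of Nr4a1, 10.6% of cells with 1, 21.7% of cells with 2 to 4, and 59.2% (44.2 to 73.003) of 49 cells with 5 or more. Egr2 was found in 0.795%, 6.81%, 11.7% and 57.1% (42.2 to 71.2) of the same classes. At least 1 of Egr1 and Egr2 was present in 73.5% of the cells of the top class. Median depth was 1190, 1350, 1306 and 1595 UMIs in these classes, and the part of depth was not tested here, while Foxp3 was found in 31.1%, 32.8%, 33.3% and 22.4%.

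The steps were seen in each library, though the top class held 3, 8 and 38 cells. In GFPhigh its 38 cells had Egr1 in 60.5% and Egr2 in 52.6%. Cells with no Nr4a1 UMI had Egr1 in 2.65%, 2.87% and 2.88% of GFPlow, GFPmed and GFPhigh. Egr2 was found in 0.578%, 0.630% and 1.24% of the same cells. These shares were not thinned, and GFPmed cells were deeper.

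**Figure D4:**
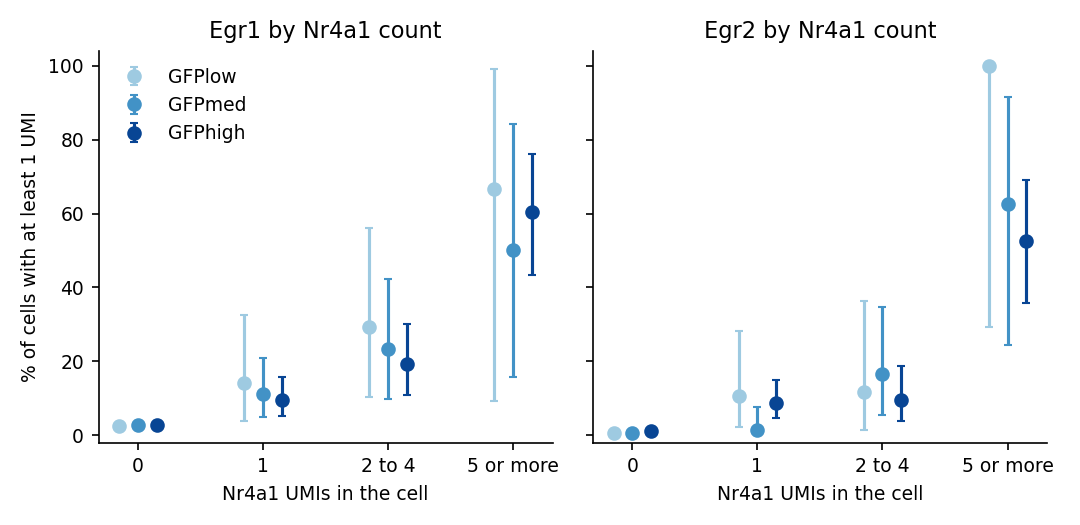
Share of cells with at least 1 UMI of Egr1 (left) or Egr2 (right), in %, by the number of Nr4a1 UMIs in the cell, for each bin, with Clopper-Pearson 95% intervals. Shares are lowest at 0 UMIs and highest at 5 or more, where GFPhigh has 60.5% for Egr1 and 52.6% for Egr2 in 38 cells.

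Cells with several of the 6 genes were more frequent in the brighter bins. Nr4a1 is 1 of the 6 and the bins were sorted by its reporter, so these counts are a description. Leaving Nr4a1 aside, Egr1 and Egr2 were found together in 10, 13 and 35 cells of GFPlow, GFPmed and GFPhigh. These are raw counts, neither thinned nor divided by the number of cells, and the bins differ in both depth and cell number. At least 2 genes were found in 19 cells of GFPlow, 30 of GFPmed and 79 of GFPhigh, or 0.895%, 1.95% and 4.45%. After thinning the shares were 0.424% (0.194 to 0.803), 0.651% (0.312 to 1.19) and 2.25% (1.61 to 3.06). At least 3 genes were found in 5, 9 and 27 cells. Of all UMIs of the 6 genes, 44.2%, 49.4% and 64.8% were in cells with at least 2 of them.

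The corepressors that bind the Egr factors parted from each other. Nab2, whose own gene responds to Egr factors, stood at 24.6, 36.6 and 50.2 UPM, a log2 ratio of GFPhigh over GFPlow of 1.02 (0.56 to 1.503). Nab1 stood at 105.1, 89.96 and 104.4 UPM, a log2 ratio of -0.01 (-0.27 to 0.25). Nab2 was co-detected with Nr4a1, Egr1 and Egr2 at 1.76 (1.24 to 2.41), 1.99 (1.23 to 3.04) and 1.97 (0.98 to 3.52) times the expected number. The interval for Egr2 holds 1. In GFPhigh alone the ratios were 1.70 (1.10 to 2.50), 1.55 (0.71 to 2.93) and 0.99 (0.27 to 2.54). Among the 9 measured of 10 listed partners and corepressors, 5 were higher and 4 lower in GFPhigh, Nab2 alone passed 2-fold, and the median log2 ratio was 0.04. Nab2 lies at the line and fell below it under 3 of the alternatives. The retinoid X receptors, dimer partners of Nr4a1 and Nr4a2, showed no shared direction: Rxra had -0.86 (-1.63 to -0.15) and Rxrb 0.31 (-0.10 to 0.72).

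Transcripts of the listed genes of the signalling routes went both ways between bins, and transcript levels do not measure the activity of a route. In the list of serum response factor and MAP kinase genes 14 of 16 were measured, and GFPhigh exceeded GFPlow for 8 and fell short for 6. Their median log2 ratio was 0.04, the same as over all genes. The ETS factor Elk3 alone passed 2-fold, at 1.06 (0.75 to 1.38). In the calcineurin, NFAT and MEF2 list 4 were higher and 9 lower of 13 measured, with a median of -0.14 and none past 2-fold. Mef2a, Mef2d and Rcan1 of this list had 37, 35 and 49 UMIs, under the minimum, and were not measured. The calcineurin regulator Rcan3 (0.83) and Nfatc1 (0.72), a T cell receptor-induced NFAT factor, were the highest named, and Nfatc2 was the lowest (-0.66).

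Over all 8633 genes, 54.6% were higher in GFPhigh than in GFPlow, which is the base for the counts by direction. Of the 20 genes listed as EGR targets or anergy genes 13 were measured. GFPhigh exceeded GFPlow for 7 and fell short for 6, the median log2 ratio was 0.20, and 4 passed 2-fold, against 2.77% of all genes. They were the costimulatory receptor Tnfrsf9 at 3.71 (3.31 to 4.17), the inhibitory ligand Cd200 at 1.83 (1.36 to 2.34), the repressor Bhlhe40 at 1.61 (0.98 to 2.32) and the inhibitory receptor Lag3 at 1.59. Of 13 measured regulatory T cell genes linked to NR4A receptors 10 were higher and 3 lower, with a median of 0.40. The inhibitory receptor Pdcd1 (2.20, 1.60 to 2.88) and the Ikaros family factor Ikzf4 (1.24, 0.85 to 1.66) passed 2-fold, and the ectonucleotidase Entpd1 had -0.94 (-1.67 to -0.26).

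Other immediate early genes did not follow the reporter as a group. Of 21 listed, 13 were measured, and GFPhigh exceeded GFPlow for 7 and fell short for 6. Their median log2 ratio was 0.10. Dusp1, a MAP kinase phosphatase, alone passed 2-fold at 1.07 (0.49 to 1.69), and it was at 0.99 without cells above 3 times the median depth. With a minimum of 10 UMIs Fos passed too, at 1.40 from 5 UMIs in GFPlow and 13 in GFPhigh. The zinc finger factor Klf6 had -0.91 (-1.12 to -0.70) and the RNA-binding Zfp36l1 had 0.91 (0.77 to 1.04). The wider list of T cell receptor response genes had 14 higher and 6 lower of 20, a median of 0.65 and 8 past 2-fold, against 2.77% of all genes, led by Tnfrsf9, the activation marker Cd83 at 2.03 (1.63 to 2.47) and the NF-kappa-B subunit Rel at 1.80 (0.88 to 2.90). The lists share genes such as Tnfrsf9.

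Co-detection in single cells gave another order than the bins. Each gene's cells shared with any of the 6 genes were counted against the number expected from depth. Over the 3 bins Nr4a1, the gene behind the sorted reporter, was detected in more cells than Egr1, Egr2 or Nr4a2. Its cells therefore weigh most in these ratios. Over 7072 genes with at least 10 expected cells the median ratio was 1.02, and 55.2% of the genes lay above 1. Of the other immediate early genes 12 of 13 lay above 1, with a median of 1.29, and of the T cell receptor response genes 17 of 20, with a median of 1.35. The other 5 lists had medians from 1.01 to 1.10.

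The 10 genes with the highest co-detection, among 6677 candidates over 5435 cells, were Nfkbid, Irf4, Tnf, Icam1, Pdcd1, Cd69, Evi2a, Bhlhe40, Tagap1 and Irf8. Nfkbid, an atypical inhibitor of NF-kappa-B, led with 83 cells against 28.3 expected, a ratio of 2.93 (2.33 to 3.63). Irf4, a factor of effector regulatory T cells, had 2.73 (1.94 to 3.74), the cytokine gene Tnf 2.43 (1.69 to 3.40), and the adhesion molecule Icam1 2.39 (1.65 to 3.36). With cells thinned to 500 UMIs and no depth groups, Icam1 was at 1.43 (0.389 to 3.65), an interval that holds 1. Between bins these genes went in different directions. Pdcd1 and Irf8 were higher in GFPhigh than GFPlow by log2 ratios of 2.20 and 1.68, whereas the early surface marker Cd69 had -0.15 (-0.47 to 0.18), Icam1 had -0.93 (-1.55 to -0.34) and Evi2a had -0.93 (-1.61 to -0.30).

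Several genes named after their values were seen show the same contrast. The immediate early genes Junb, Zfp36 and Ier2 were co-detected with the 6 genes at ratios of 1.73, 1.72 and 1.58, with log2 ratios between GFPhigh and GFPlow of -0.06, -0.44 and -0.28. The interleukin 2 receptor chain Il2rb had a log2 ratio of 1.28 and a co-detection ratio of 0.95, and Ikzf4 had 1.24 and 1.02. Fos, another immediate early gene, had transcripts in only 22 cells. Of these cells 8 had Egr2 where 0.48 were expected, 9 had Egr1 where 0.95 were expected, and 9 had Nr4a1 where 1.81 were expected.

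**Figure D5:**
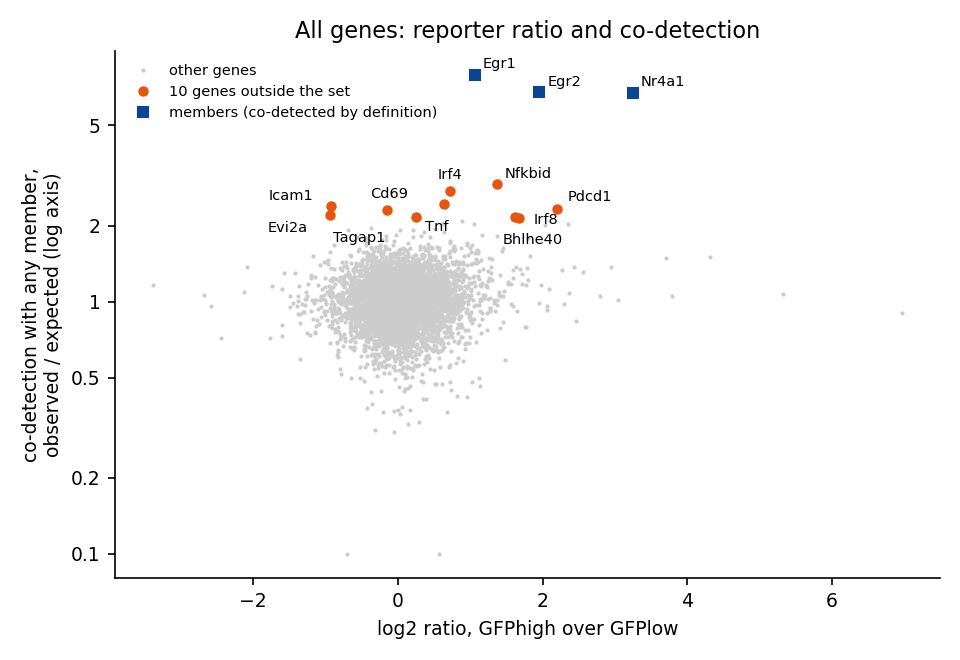
Each point is 1 of 7072 genes: the log2 ratio of GFPhigh over GFPlow across, and the observed over expected number of cells shared with any of the 6 genes upward (log axis, with 2 genes under 0.1 drawn at 0.1). Nr4a1, Egr1 and Egr2 (squares) are high upward by construction. The 10 genes with the next highest co-detection (circles) spread from a log2 ratio of -0.93 for Icam1 and Evi2a to 2.20 for Pdcd1.

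Within GFPhigh the cells were divided into 1476 with none of the 6 genes, 220 with 1 and 79 with 2 or more, with median depths of 1100, 1249 and 1468 UMIs. Nfkbid stood at 22.7, 164.8 and 532.1 UPM in these classes. Cd69 stood at 34.1, 121.1 and 395.1 UPM, and Junb at 115.2, 225.4 and 507.96 UPM. Nfkbid and Cd69 were named for their co-detection with the 6 genes and Junb after its ratio was seen, so their order over these classes is a description of that choice. Foxp3 stood at 349.4 (322.9 to 377.4), 460.8 (386.9 to 544.7) and 258.01 (176.5 to 364.2) UPM.

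Tnfrsf9, named for its ratio between bins, was also found in GFPhigh cells with none of the 6 genes. It stood at 215.8 (195.1 to 238.04), 396.9 (328.5 to 475.3) and 798.2 (648.8 to 971.8) UPM in the 3 classes. In the same classes of GFPmed it stood at 42.7 (34.6 to 52.3), 111.996 (73.2 to 164.1) and 69.4 (18.9 to 177.8) UPM. The last GFPmed value came from 4 UMIs and its interval holds the other values, so no climb beyond 1 gene was shown there. In GFPlow cells with none of the 6 genes Tnfrsf9 stood at 19.997 (14.6 to 26.7) UPM. The GFPlow cells with 1 gene and those with 2 or more held 2 UMIs of it each, too few to show an order. For Cd69 the same comparison of cells with none went the other way, with 34.1 (26.2 to 43.6) UPM in GFPhigh and 67.8 (57.6 to 79.3) UPM in GFPlow.

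Other cell types in the sort could carry transcripts of the 6 genes. Of the 85 cells with at least 3 markers of another type (median 1251 UMIs), 10 had Nr4a1, or 11.8% (5.79 to 20.6), and 1 had Egr1. None had Egr2, which at 3 counts allows up to 3.53% of such cells to have a UMI of it, whether or not they express the gene. In GFPmed 4 of 7 cells with myeloid markers held 19 UMIs of Nr4a1, and the 36 cells with markers of any other type held 25 UMIs. Without such cells Nr4a1 stood at 35.01, 85.9 and 344.9 UPM, and the log2 ratio of GFPhigh over GFPlow was 1.07 for Egr1 and 1.96 for Egr2. Cells with erythroid markers, which should lack these genes, numbered 19 (median 1711 UMIs) and had none of them, which allows up to 15.8%, too few to set a background from free RNA.

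Summed marker levels differed by list, with erythroid and myeloid markers highest in GFPmed and plasma cell markers highest in GFPhigh. Erythroid markers summed to 1399, 3002 and 1051 UPM in GFPlow, GFPmed and GFPhigh, led by Hba-a2, and myeloid markers to 75.1, 224.5 and 79.3 UPM, led by Cst3, with 3 of the 11 at 0. B cell markers summed to 279.98, 386.9 and 368.2 UPM, led by Cd74, and CD8 T and NK cell markers to 53.4, 124.6 and 63.4 UPM, led by Cd8b1. Plasma cell markers summed to 100.6, 66.9 and 325.9 UPM. Xbp1, the leading marker of that list, made up 78.001, 60.1 and 95.6 UPM of these sums. The higher plasma cell sum in GFPhigh thus lay mostly in the other markers of the list. Only 1 cell in each bin held at least 3 plasma cell markers. The 9 T cell and regulatory T cell markers summed to 3704, 3561 and 4351 UPM. The part of these cells in the other differences between bins was not tested beyond the values above.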

How the data were processed

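Counts were deposited by the authors as whole UMI counts per gene and cell, with no normalization. Per the submitters' processing notes, TopHat2, SAMtools and the mm10 genome were used, and their versions, the annotation and the UMI rule are not given in the sources used here. All columns matched a labelled cell, and 0 were unused. No doublets were removed, and cells under 500 UMIs were left out.

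From the deposited counts, UMIs were summed per bin and scaled to 1000000. Log2 ratios used 0.5 UMI added to each count. Intervals at 95% were exact Poisson for levels and observed co-detections, exact conditional binomial for ratios and Clopper-Pearson for shares, and a count of 0 was taken as 3. Python 3.11.15, NumPy 2.4.6 and SciPy 1.17.1 were used, with edgeR 4.0.16 for an alternative scaling (TMM). No test between bins was made.

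The 6 genes, the gene lists and the comparisons were chosen with earlier results of these data known. Named by rule were the 6 genes, the 10 others with the highest co-detection with at least 10 expected, leaving out ribosomal protein, mitochondrial, antigen receptor segment and unnamed model genes, up to 3 genes per list with the largest ratio among those with at least 50 UMIs, Foxp3, Cd4 and Cd3e, and the leading marker of each other cell type. Nab1, Egr4, Lag3, Fos, Junb, Zfp36, Ier2 and Il2rb were named after their values were seen. Cd4 stood at 558, 384 and 465 UPM. Gene positions are from GENCODE M21 (GRCm38), and start windows, matched for 4 of the 6 genes, from RefSeq. Ratios were checked on simulated counts: for GFPhigh over GFPlow the simulated ratio lay inside the interval for 95.9% of 8633 genes. The simulated counts had Poisson error, for which the interval is built. This checks the calculation and cannot cover uneven spread over cells or between libraries. In simulated GFPhigh cells, 49 genes raised in the same cells had a median co-detection ratio of 1.21, and 250 independent genes 1.01. The rise was the same in every raised cell, unlike the uneven counts of the 6 genes. The value of 1.21 therefore checks the calculation and is no scale for their ratios.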

Additional observations from a re-analysis of the deposited data

How the results depend on the processing

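No paired analysis was possible because each bin is 1 library and no test was made. Of 912 values recomputed under alternatives, 852 moved by less than their interval or 1.5 times, and every log2 ratio between bins of the 6 genes was among these. Of these ratios, 2 changed side of the 2-fold line: Egr1 in GFPhigh over GFPlow fell to 0.94 with equal weight per cell, and in GFPhigh over GFPmed it reached 1.01 in cells with at least 1000 UMIs. Scaling outside ribosomal protein genes raised the levels in GFPlow, GFPmed and GFPhigh to 48.2, 132.2 and 462.6 UPM for Nr4a1 and 57.6, 66.4 and 121.5 for Egr1, and to 26.1 and 76.6 in GFPmed and GFPhigh for Egr2. Without the highest cell Nr4a1 in GFPhigh was 316.9. Thinned to 1000 UMIs, the shares were 2.52%, 5.31% and 13.3% for Nr4a1, 2.60%, 2.86% and 5.08% for Egr1, 1.18%, 1.31% and 3.48% for Egr2, 5.05%, 7.67% and 17.01% for any gene, 1.10%, 1.47% and 3.85% for at least 2 genes, and 0.470% for Nr4a2 in GFPhigh. Without thinning they were 2.26%, 7.09% and 13.9%, 3.11%, 3.90% and 5.30%, 1.30% and 3.27% (Egr2, GFPmed and GFPhigh), 5.18%, 10.0% and 16.8%, 0.895%, 1.95% and 4.45%, and 0.451%. Another random seed gave 0.942% for Nr4a1 in GFPlow, and the mean over all thinnings, chosen after seeing the data, 1.28%. With cells thinned to 500 UMIs and no depth groups, co-detection of Nr4a1 with Egr1 was 6.28 over 3 bins, 7.26 in GFPmed and 5.88 in GFPhigh. For Nr4a1 with Egr2 it was 9.31, and 32.7, 19.1 and 6.98 by bin. For the rare Nr4a2 it was 17.2 with Nr4a1, 26.2 with Egr1 and 0 with Egr2, where thinning leaves few cells. In the same setting co-detection with any of the 6 genes was 5.10 for Nfkbid, 4.57 for Tnf, 3.499 for Cd69 and 1.43 for Icam1. Genes past 2-fold among the other immediate early genes numbered 0 without cells above 3 times the median depth, where Dusp1 was at 0.99, and 2 with a minimum of 10 UMIs, Dusp1 and Fos. Among partners and corepressors they numbered 0 with all cells, with TMM and with equal weight per cell. Depth limits all shares: a gene absent from a cell's UMIs may be expressed there.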
